A study of Mus musculus with 19 samples.

Results

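Myc and 39 genes of ribosome biogenesis were examined in RNAseq values of mouse tongue epithelium. The genes are a list given by name, with no threshold on measured values in the rule. The list was chosen with earlier results of these data known, and it holds 40 of the 24689 gene symbols in the data. All 40 passed the filter on low values, which kept 22745 genes.

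Epithelia were microdissected from 19 adult mice 15 days after transgene induction, which combined tamoxifen injected into the tongue with doxycycline in the diet. The methods of the study describe groups of littermates. Mice of the E group (5) carried Krt14-CreERT, LSL-rtTA and tetON_E6-E7, the last encoding the HPV16 oncoproteins E6 and E7. Y mice (3) carried Krt14-CreERT, LSL-rtTA and tetON_YAP1S127A, a constitutively active YAP, and EY mice (6) carried both effector transgenes with the same drivers. Of the 5 N mice, which served as controls, 3 carried only the drivers Krt14-CreERT and LSL-rtTA, N mouse 4 carried LSL-rtTA without a Cre recombinase, and N mouse 5 carried Krt14-CreERT and both effector transgenes without rtTA. By the methods of the study its lines also carried a tetON_H2B-GFP reporter. The Krt14 promoter limits recombination to basal keratinocytes, whereas the RNA came from the whole epithelium, so that each value is a mean over induced and other cells. Values are in TPM (transcripts per 1000000, which accounts for gene length), and 8269674 to 11007304 reads per mouse lay behind them.

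Ribosomes are assembled in the nucleolus, where RNA polymerase I transcribes the precursor of the ribosomal RNAs. Small nucleolar RNPs guide the modification of this precursor, and large sets of processing factors cleave it, fold it and join it with ribosomal proteins into the small and the large subunit. Myc is a transcription factor known to raise the expression of many of these factors, and dividing basal cells of stratified epithelia are a site of high ribosome production.

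Levels of 8 markers of tongue epithelium were read beside the tissue label. None of the 8 was at 0 in all mice. The same held for the markers of other cells below, so that it does not set the tissue apart. Krt13, a keratin of differentiating oral epithelium, was the most abundant of them, with a mean TPM of 71100 for N, 64500 for E, 42200 for Y and 20900 for EY mice. The basal keratin Krt14 had means of 6050, 7790, 15600 and 16700 TPM in the same order. Krt14 rose in EY against N (log2 fold change 1.43, adjusted p = 0.000402) and Krt13 fell by 1.75 on the log2 scale (adjusted p = 6.15e-05). Of the 8 markers 3 rose (Krt14, Krt5 and Cdh1) and 3 fell (Krt13, Krt4 and Krt15), so that the basal keratins did not move together: Krt5 rose by 0.98 (adjusted p = 0.00067), whereas Krt15 fell by 1.27 (adjusted p = 0.00281), from a mean of 1860 TPM in N to 800 in EY. After scaling by median-of-ratios factors (described below) the same 6 were called and Perp was called lower as well (-0.55, adjusted p = 0.000362). In Y Krt14 (1.33, adjusted p = 0.0108), Krt5 (0.80, adjusted p = 0.0306) and Cdh1 (0.58, adjusted p = 0.0415) rose and 0 of 8 fell in limma, with 2 lower at an unadjusted p below 0.05 and 2 called lower by voom; after scaling Krt14 was still called, and Krt5 (adjusted p = 0.0899) and Cdh1 (adjusted p = 0.15) were not. In E 0 of 8 were called by limma or voom, or passed an unadjusted p below 0.05. In such bulk samples, fewer cells of a type and less RNA per cell cannot be told apart, and the part of these keratin changes in the results below was not tested.

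All 40 members rose in EY epithelia against N, at a Benjamini-Hochberg adjusted p below 0.05 in limma over all genes tested, a call that 30.6% of all genes tested met in the same direction. Their median log2 fold change was 1.21, from 0.41 for Noc2l to 1.88 for Npm1, beside a median of 0.33 over all genes. In 38 of the 40 every EY mouse was above every N mouse, as for 20.9% of all genes. At an unadjusted p below 0.05 in limma 0 members were lower in EY or in Y and 1, Wdr12, was lower in E, and voom on recovered reads also called 0 members lower in these comparisons. Under a stricter rule, which asks for an adjusted p below 0.01 together with a log2 fold change beyond 1 in size, 28 of 40 members were higher and 0 lower, beside 12.6% of all genes higher.

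The median of all genes was itself shifted by 0.33 in EY against N, and this shift bears on the size of every change in TPM. When each mouse was divided by its median-of-ratios factor, a scaling that centres the typical gene, all genes split into 4300 higher and 4373 lower calls of 22716, in place of 6967 higher and 2571 lower calls. On this scale 37 of 40 members rose in EY (18.9% of all genes), with a median log2 fold change of 0.84 beside 0.01 for all genes. The 3 members without a call were Polr1a, Polr1c and Noc2l, and Noc2l, a factor of the large subunit, had a log2 fold change of 0.04. With the stricter rule after scaling, an alternative chosen after seeing the data, 7 of 40 members were called higher, beside 6.78% of all genes.

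Y epithelia showed a smaller rise. Of the 40 members 31 rose against N, where 13.0% of all genes tested did, and 0 fell. The median log2 fold change was 0.75, from 0.32 to 1.05, beside 0.13 for all genes, and 33 members were higher in every Y mouse than in every N mouse (15.5% of all genes). The 9 members without a call were Polr1a, Polr1b, Polr1c, Nolc1, Mybbp1a, Utp14a, Utp20, Noc2l and Noc3l. After scaling 21 of 40 were called (7.36% of all genes) with a median of 0.56, and without Y mouse 3, 20 of 40 were called on TPM as deposited (7.38% of all genes). With only the 3 N mice that carried both drivers 21 of 40 were called (8.01% of all genes), with a median of 0.64. The stricter rule held for 3 members in Y (Npm1, Bysl and Nop16), beside 3.47% of all genes.

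In E epithelia 1 of 40 members rose against N, where 3.32% of all genes tested did, and 0 fell. The median log2 fold change of the members was 0.07, and that of all genes was also 0.07. The called member was Gar1, a core protein of the H/ACA small nucleolar RNPs. The stricter rule held for 0 members in E, beside 1.16% of all genes. After scaling the median was -0.04, Gar1 was called higher (2.42% of all genes) and Wdr12 was called lower (0.665% of all genes lower), while with the same 3 N mice alone 0 members were called in E (1.65% of all genes higher). The comparisons of EY, Y and E with N share the 5 N mice, so that their values are given side by side and not as separate evidence.

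**Figure D1:**
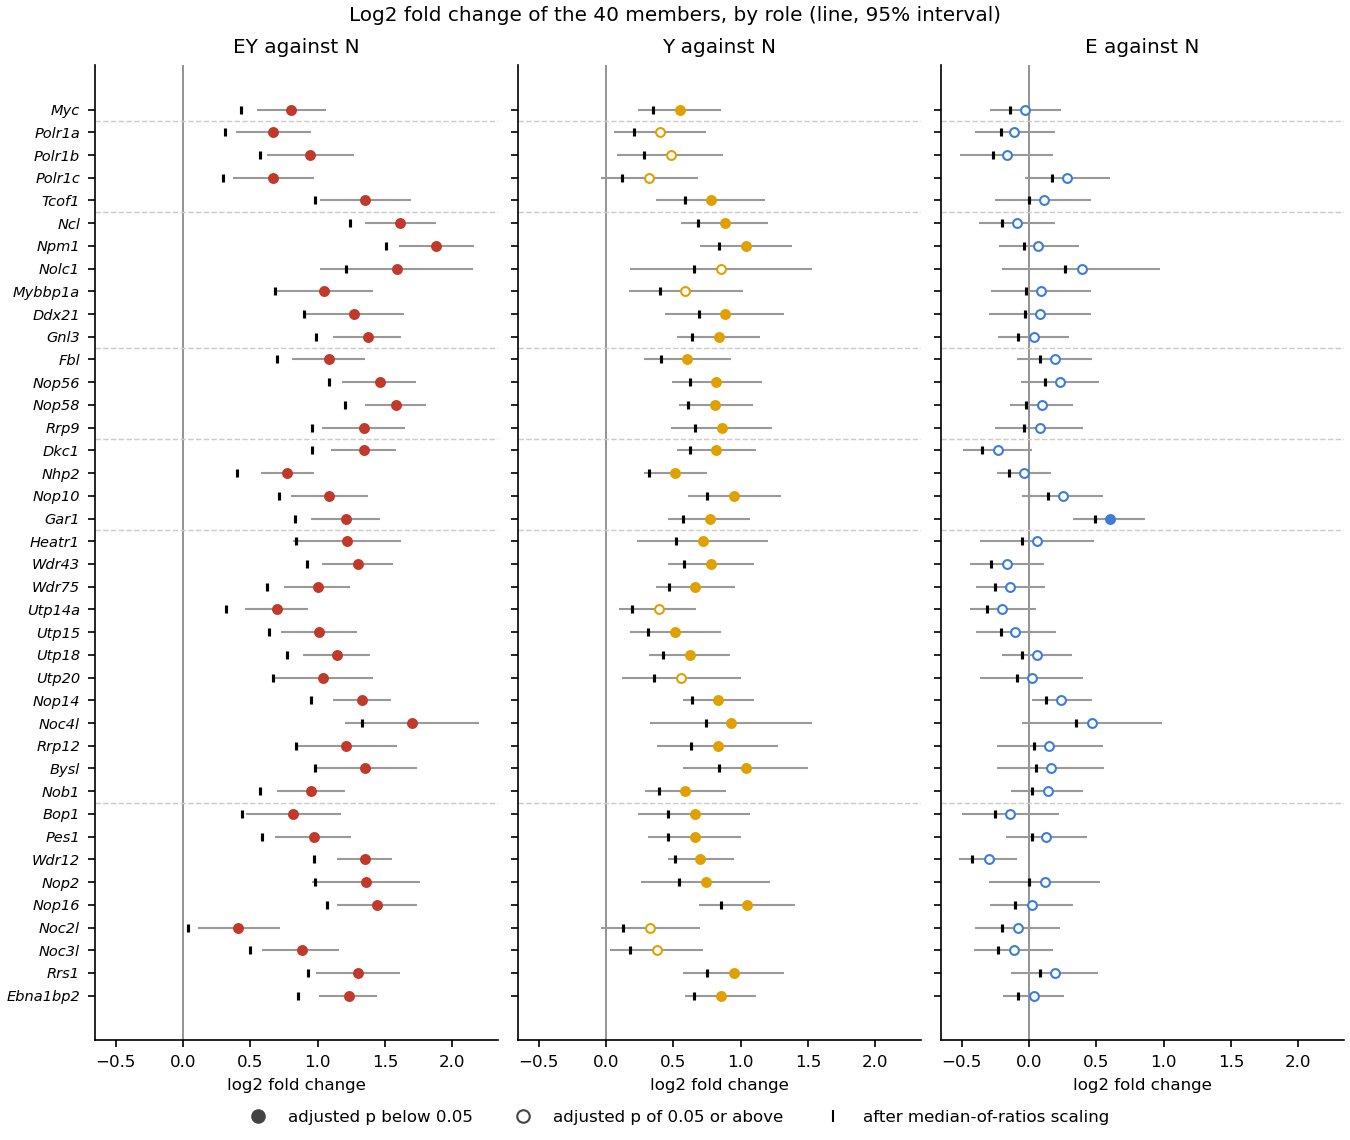
Log2 fold change (x axis) of the 40 members, grouped by role from top to bottom (transcription factor, RNA polymerase I, nucleolar scaffold, box C/D, box H/ACA, small subunit, large subunit), in EY, Y and E against N. Circles are limma estimates on log2(TPM + 0.1), filled where the adjusted p is below 0.05, lines are 95% intervals and black ticks are values after median-of-ratios scaling; all 40 circles are filled in EY, 31 in Y and 1 in E.

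Summed over the 40 members, TPM were 1819, 1915, 1997, 1579 and 1741 in N mice 1 to 5 and 1712, 2051, 1957, 1953 and 1867 in E mice 1 to 5. Y mice 1 to 3 had 2926, 3150 and 3426, and the EY mice had 3799 (EY mouse 3), a median of 4760 and 5359 (EY mouse 4) as lowest, median and highest. In summed TPM the N and E mice overlapped, every Y mouse was above them, and every EY mouse was above every Y mouse. A sum is weighted towards the most abundant members, such as Npm1. The median log2 difference of the members from the N mean did overlap between Y and EY mice. It ran from 0.54 to 0.88 in Y and from 0.82 to 1.4 in EY mice. After scaling it ran from 0.4 to 0.59 in Y and from 0.44 to 1.03 in EY mice. The members held 0.181% ± 0.0163 (SD, n = 5) of all TPM in N and 0.463% ± 0.0615 (SD, n = 6) in EY epithelia.

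Markers of cycling cells moved as well, and in all 3 comparisons with N. Of 12 such markers 12 rose in EY, 11 in Y and 12 in E, with median log2 fold changes of 2.30, 0.99 and 1.44; after scaling 12, 7 and 12 were called, with medians of 1.92, 0.79 and 1.33. Their summed TPM were 281, 310, 320, 267 and 308 in N mice 1 to 5 and 526, 785, 884, 951 and 832 in E mice 1 to 5. Y mice 1 to 3 had 582, 717 and 776, and the EY mice had 1350, 1490 and 1580 as lowest, median and highest. The most abundant of them, Pcna, a clamp of the replication machinery, had mean TPM of 135 (N), 336 (E), 243 (Y) and 512 (EY), and none of the 12 was at 0 in all mice. The E mice were thus all above the N mice in cycling markers, while their summed TPM of the 40 members overlapped those of N. The part of cycling cells in the rise of the members in Y and EY was not tested.

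**Figure D2:**
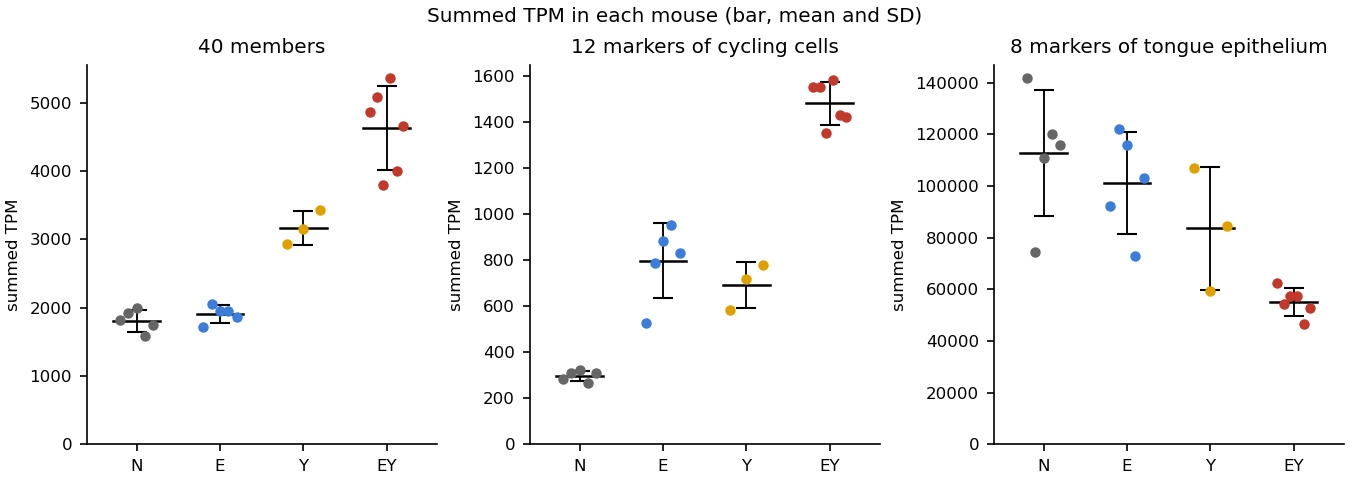
Summed TPM (y axis) of the 40 members, of 12 markers of cycling cells and of 8 markers of tongue epithelium in each mouse of the groups N, E, Y and EY. Points are mice and bars the mean and SD; E mice lie within or near the N range for the members (1712 to 2051 against 1579 to 1997) and above it for the cycling markers (526 to 951 against 267 to 320).

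Markers of other cells were summed in the same way. Skeletal muscle markers, led by Acta1, summed to 11.6 to 249 TPM in N and 37.0 to 1360 in EY, where the highest value was that of EY mouse 3, the EY mouse with the lowest summed TPM of the members. Of the 9 muscle markers 9 had a log2 fold change above 0 in EY (median 1.78) and 1 (Myh2) was called higher. Fibroblast markers, led by Dcn in N, summed to a median of 86.3 TPM in N and 72.7 in EY. Dcn was called lower in EY (log2 fold change -2.36, adjusted p = 0.000249), while the other 5 of 6 were above 0 without a call, and the median log2 fold change of the 6 was 0.39. Leukocyte and myeloid markers, led by Lyz2 in both groups, summed to 86.5, 109 and 690 TPM in N and 131, 178 and 274 in EY as lowest, median and highest, the 690 being N mouse 1. Of these 7 markers 6 were above 0 in EY (median log2 fold change 0.84), and 1 of 7 (Ly6g, listed at 0 in all N, E and Y mice) rose in EY. The 4 T cell markers summed to a mean of 1.81 TPM in N and 5.61 in EY, with 2 of 4 called higher (Cd3d and Cd3g; after scaling Cd3g was not, adjusted p = 0.0536), and the 4 endothelial markers to 0.448 and 1.02, with 0 called of the 3 that passed the filter (Emcn did not). The Langerhans cell marker Cd207 fell from a mean of 7.91 TPM in N to 2.53 in EY (log2 fold change -1.86, adjusted p = 0.00314). Of 2 melanocyte markers Dct, at a mean of 0.158 TPM in N, fell (-1.10, adjusted p = 0.003) and Pmel was not called, and of 2 Schwann cell markers 0 were called. In Y the fibroblast sum was 23.8, 44.1 and 34.5 TPM in mice 1 to 3, below every N mouse (61.5 to 293), with 0 of 6 markers above 0 (median log2 fold change -1.58) and Dcn called lower (-1.86, adjusted p = 0.0206). The leukocyte sum in Y was 63.2, 44.7 and 65.6 TPM, also below every N mouse, with 1 of 7 above 0 (median -0.08) and 0 called. Muscle markers in Y summed to 7.66, 145 and 17.3 TPM, with 1 of 9 above 0 (median -0.86). Of the 34 markers of other cells tested, limma and voom each called 0 higher and 1 lower in Y, where 0 were higher and 5 lower at an unadjusted p below 0.05, and 0 in either direction in E, also at an unadjusted p below 0.05. The part of these cells in the results was not tested.

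Myc stood at 51.6, 55.4, 41.7, 63.5 and 48.4 TPM in N mice 1 to 5, at 50, 46.0, 46.3, 58.2 and 53.6 in E mice 1 to 5, and at 83.8, 66.0 and 77.3 in Y mice 1 to 3. In EY mice the lowest value was 77.0, the median 87.3 and the highest 119 TPM. Every Y and every EY mouse was above every N mouse, and the Y and EY mice overlapped. Myc rose in EY against N (log2 fold change 0.80 ± 0.12 SE, adjusted p = 3.31e-05) and in Y against N (0.55 ± 0.14, adjusted p = 0.0154), while in E against N the log2 fold change was -0.03 (adjusted p = 0.965). After scaling the change in EY was 0.43 (adjusted p = 0.0132) and that in Y was 0.35 and no longer called (adjusted p = 0.155). The call in Y was also lost without Y mouse 1 (adjusted p = 0.078) and without Y mouse 3 (0.0654), with only N and Y mice in the model (0.0526) and with voom on recovered reads (0.0549). EY and Y did not differ past the threshold (log2 fold change 0.26, adjusted p = 0.274).

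**Figure D3:**
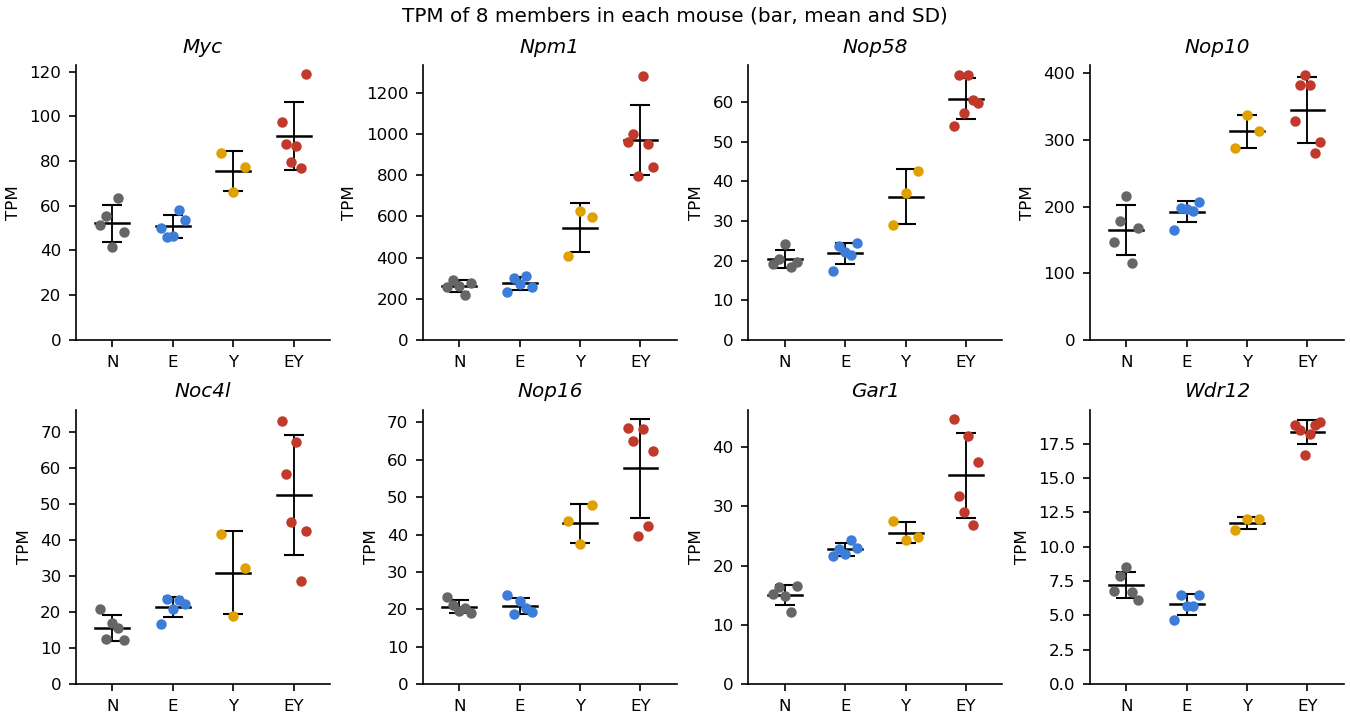
TPM (y axis) of Myc, Npm1, Nop58, Nop10, Noc4l, Nop16, Gar1 and Wdr12 in each mouse of the groups N, E, Y and EY, each on its own axis from 0. Points are mice and bars the mean and SD. Wdr12 lies between 16.7 and 19.1 TPM in the 6 EY mice and between 11.2 and 12 in the 3 Y mice. For Myc, Nop10, Noc4l, Nop16 and Gar1 the Y and EY mice overlap.

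The counts by role that follow stand beside 30.6% of all genes called higher in EY and 13.0% in Y, or 18.9% and 7.36% after scaling. Of the 4 genes of RNA polymerase I transcription, 4 rose in EY and 1, Tcof1, rose in Y; after scaling 2 and 1 did, without Polr1a (0.31 in EY, adjusted p = 0.0895) and Polr1c. Polr1c, a subunit shared with RNA polymerase III, had the highest level of the 4, at 32.9, 49.2, 44.9, 33.7 and 41.1 TPM in N mice 1 to 5, 48.2, 51.9, 43.4, 59.0 and 41.9 in E mice and 49.0, 50.4 and 49.6 in Y mice. In EY mice it ran from 45.5 over a median of 63.9 to 83.1 TPM. The EY and N mice overlapped, and the log2 fold change of 0.67 (adjusted p = 0.000885) became 0.30 after scaling (adjusted p = 0.0923). Tcof1 encodes treacle, a nucleolar protein needed for transcription of ribosomal DNA. Its values were 2.82, 2.83, 2.96, 2.71 and 2.09 TPM in N mice, 3.25, 2.52, 2.88, 2.90 and 2.85 in E mice, 4.69, 3.72 and 5.73 in Y mice, and 5.14, 7.08 and 9.65 as the lowest, median and highest of the EY mice. Both Y and EY mice lay above all N and E mice, with log2 fold changes of 0.78 (adjusted p = 0.0099) in Y and 1.35 (adjusted p = 2.55e-06) in EY against N.

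The 6 nucleolar scaffold, chaperone and helicase genes had the highest median change of the role lists with more than 1 member, 1.48 in EY, where 6 of 6 rose, and 0.87 in Y, where 4 of 6 rose, with the same counts after scaling. Npm1, which encodes nucleophosmin, a chaperone of the granular nucleolus, was both the most abundant and the most changed member of the 40. It stood at 259, 293, 260, 218 and 276 TPM in N mice 1 to 5, at 233, 302, 270, 311 and 258 in E mice and at 408, 626 and 599 in Y mice, and in EY mice at 794, 957 and 1280 as lowest, median and highest. The EY mice were all above the Y mice, which were all above N and E. Its log2 fold change was 1.88 ± 0.13 SE in EY (adjusted p = 8.89e-09) and 1.04 in Y (adjusted p = 0.000316) against N, and 0.84 in EY against Y (adjusted p = 0.0032). Npm1 has processed pseudogenes, and how reads shared with them were counted is not given in the sources used here. Ncl, nucleolin, stood at 257, 277, 255, 226 and 244 TPM in N, at 396, 476 and 525 in Y, and at 540, 819 and 895 as lowest, median and highest in EY, again without overlap among these 3 groups.

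All 4 box C/D and U3 snoRNP genes, whose particles guide methylation of ribosomal RNA or its early cleavage, rose both in EY and in Y (4 and 3 after scaling). Nop56, the most abundant of them, had 140, 130, 173, 122 and 124 TPM in N mice, 133, 189, 176, 138 and 175 in E mice, 229, 229 and 269 in Y mice, and 279, 407 and 436 as the lowest, median and highest of the EY mice. Nop58, its partner in the particle, had 19.2, 20.3, 24.3, 18.4 and 19.7 TPM in N mice, 17.5, 23.7, 22.1, 21.4 and 24.4 in E mice, 28.9, 37.1 and 42.5 in Y mice, and 53.9, 60.1 and 66.8 as lowest, median and highest in EY. For both genes the N and E mice overlapped, the Y mice were above them and the EY mice were above the Y mice. The log2 fold changes against N were 1.46 (adjusted p = 1.32e-07) for Nop56 and 1.58 (adjusted p = 6.47e-09) for Nop58 in EY, and 0.82 (adjusted p = 0.00187) and 0.81 (adjusted p = 0.000425) in Y.

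Of the 4 box H/ACA snoRNP genes, which act in pseudouridylation, 4 rose in EY and 4 in Y (4 and 3 after scaling). Nop10 had 147, 178, 216, 115 and 168 TPM in N, 165, 198, 197, 194 and 207 in E, and 288, 338 and 313 in Y mice, and 280, 355 and 398 as lowest, median and highest in EY. Its Y and EY mice overlapped, with log2 fold changes against N of 0.95 (adjusted p = 0.000748) and 1.08 (adjusted p = 5.23e-06). Dkc1, dyskerin, the pseudouridine synthase of the particle, had 27.5, 29.1, 31.2, 23.8 and 30.0 TPM in N mice, 20.0, 29.9, 25.8, 24.3 and 21.1 in E mice, 43.9, 52.1 and 54.6 in Y mice, and 59.0, 71.5 and 82.5 as lowest, median and highest in EY. Here the EY mice did lie above all Y mice. Gar1, the member called in E, had 15.2, 16.4, 14.9, 12.2 and 16.5 TPM in N mice and 21.6, 22.8, 22, 24.3 and 22.9 in E mice, a log2 fold change of 0.60 (adjusted p = 0.0107). Every E mouse was above every N mouse for Gar1, as for 3.93% of all genes, and the Y mice, at 27.6, 24.3 and 24.8 TPM, reached down to the highest E mouse.

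Of the 12 genes of small subunit processing, 12 rose in EY and 10 in Y, with medians of 1.17 and 0.69, and 12 and 6 rose after scaling. Noc4l changed most, at 21.0, 12.5, 17.0, 15.5 and 12.3 TPM in N mice, 16.8, 23.8, 21.0, 23.4 and 22.2 in E mice, 41.8, 18.9 and 32.3 in Y mice, and 28.8, 51.7 and 73.3 as the lowest, median and highest of the EY mice. Nob1 had the higher mean in N (22.2 TPM, beside 15.7 for Noc4l), in E (24.1, beside 21.4) and in Y (33.2, beside 31.0), and Noc4l in EY (52.6, beside 42.8). The EY mice were spread widely for Noc4l and all lay above N, whereas Y mouse 2 fell within the N range. The log2 fold change was 1.7 ± 0.24 SE in EY (adjusted p = 1.5e-05) and 0.93 ± 0.28 in Y (adjusted p = 0.0318), the latter with an adjusted p of 0.0978 after scaling.

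Of the 9 genes of large subunit processing, 9 rose in EY and 7 in Y, with medians of 1.23 and 0.70, and 8 and 4 rose after scaling. Rrs1, an assembly factor of the large subunit, was the most abundant of them, at 73.5, 66.7, 85.6, 53.8 and 68.3 TPM in N mice, 80.0, 76.6, 105, 72.5 and 63.7 in E mice, 148, 120 and 132 in Y mice, and 123, 178 and 198 as lowest, median and highest of the EY mice. Nop16 changed most, from 23.3, 21.3, 19.5, 20.4 and 19.1 TPM in N to 43.5, 37.6 and 47.8 in Y and to 39.6, 63.6 and 68.6 (lowest, median and highest) in EY, with log2 fold changes of 1.05 (adjusted p = 0.000447) and 1.44 (adjusted p = 3.01e-07). For both genes the Y and EY mice overlapped and all of them were above N.

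EY was also compared directly with each single transgene. Against E, 40 of 40 members were higher in EY, beside 24.7% of all genes, with a median log2 fold change of 1.11 beside 0.26, and with 38 of 40 after scaling (16.4%) and 26 of 40 by the stricter rule (7.82%). Against Y, 10 of 40 were higher and 0 lower, beside 6.18% of all genes higher, with a median log2 fold change of 0.47 beside 0.18. In order of adjusted p the leading 5 were Nop58 (0.76, adjusted p = 0.00144), Wdr12 (0.64, adjusted p = 0.00215), Npm1 (0.84), Ncl (0.73, adjusted p = 0.00515) and Nop56 (0.63, adjusted p = 0.0162). This count depended on single mice and on scaling. It was 4 after scaling (3.01% of all genes), namely Ncl, Npm1, Nop58 and Wdr12, and 5 without Y mouse 1 (2.47%), 4 without Y mouse 2 (3.63%), 16 without EY mouse 3 (6.43%) and 17 without EY mouse 5 (6.15%). Other markers moved in these 2 comparisons as well. All 12 cycling markers were called higher against Y (median 1.1) and against E (median 0.94), and 11 and 8 after scaling. Of 34 tested markers of other cells, 16 were higher and 1 lower against Y at an unadjusted limma p below 0.05. Against E these counts were 12 and 3. The median log2 fold change against Y was 2.72 for muscle, 2.0 for fibroblast and 1.17 for leukocyte markers. The part of these cells was not tested.

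The interaction, which asks whether the change in EY departs from the sum of the changes in E and Y on the log2 scale, was called for 1 of 40 members, where 0.242% of all genes were called in that direction, and for 3 of 40 by voom. The median of the members was 0.38 beside 0.08 for all genes (0.31 beside 0.02 after scaling). Above 0 were 38 of 40 members, beside 12627 of 22745 genes. At an unadjusted limma p below 0.05, 14 of 40 members were higher, and the share of all genes is not given here. At that p 8 of 34 markers of other cells were higher and 5 of 12 cycling markers lower. The median interaction was 3.19 for muscle, 2.42 for fibroblast and 1.14 for leukocyte markers. The part of these cells was not tested. Among the members, Dkc1 (0.75, adjusted p = 0.0587) and Ncl (0.82, adjusted p = 0.0592) came next after the called member and missed the threshold. The called member was Wdr12, a subunit of the PeBoW complex with Bop1 and Pes1, which is needed for maturation of the large subunit. Wdr12 had 6.79, 7.86, 8.53, 6.72 and 6.15 TPM in N mice 1 to 5, 4.67, 6.49, 5.69, 5.72 and 6.52 in E mice, 11.2, 12 and 12 in Y mice, and 16.7, 18.7 and 19.1 as the lowest, median and highest of the EY mice. The EY mice were above the Y mice, the Y mice above N, and the E mice overlapped N. The interaction was 0.95 ± 0.15 SE on the log2 scale (adjusted p = 0.00598), and Wdr12 was called in all 19 fits that left out 1 mouse and after scaling, where it was again the 1 member called (0.207% of all genes). Its partners Bop1 and Pes1 had interactions of 0.30 (adjusted p = 0.653) and 0.18 (adjusted p = 0.76).

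Other genes of the same pathway, in lists that do not hold the members, were counted in the same way, beside 30.6%, 13.0% and 3.32% of all genes called higher in EY, Y and E. Of 100 such genes of RNA polymerase I, subunit processing and snoRNP assembly, 93 rose and 1 fell in EY, 57 rose in Y and 2 rose in E, with median log2 fold changes of 0.98, 0.58 and 0.07. The 2 in E are below the share of all genes. After scaling 76 rose and 2 fell in EY, 31 rose and 1 fell in Y, and limma called 0 in E, with a median of -0.05. The largest changes in EY were those of Lyar (2.16, adjusted p = 1.83e-09), a nucleolar factor, Ruvbl2 (1.83, adjusted p = 2.79e-07), an ATPase of snoRNP assembly, and Mrto4 (1.60, adjusted p = 5.51e-09). The gene that fell was Taf1a (-0.56, adjusted p = 0.000417), a subunit of the selectivity factor of RNA polymerase I, while Taf1d of the same factor rose (1.3, adjusted p = 6.72e-08). Polr1g is listed under its older symbol Cd3eap and rose by 1.14 (adjusted p = 4.95e-05).

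The 79 cytosolic ribosomal protein genes, whose products are the structural proteins of the ribosome, moved less. In EY 50 of 79 rose and 0 fell (30.6% of all genes rose), with a median log2 fold change of 0.42 beside 0.33 for all genes, and voom called 29 higher and 1 lower. After scaling 3 rose and 1 fell, with a median of 0.04. The calls against N on TPM as deposited were thus mostly absent on the scaled values. Against E, 55 of 79 were higher in EY (24.7% of all genes), with a median of 0.54. After scaling 25 were higher against E (16.4% of all genes), with a median of 0.28. In Y 10 of 79 were called higher, near the 13.0% of all genes, with a median of 0.27 beside 0.13; after scaling limma called 0 and the median was 0.07, and voom called 3 higher. At an unadjusted p below 0.05 in limma, 57 of 79 were higher and 0 lower in EY. In E the median was -0.11, with 27 of 79 above 0 and 0 called by limma, while voom called 2 lower; after scaling it was -0.22 with 3 called lower. On TPM as deposited 3 were higher and 15 lower in E at an unadjusted p below 0.05. Many of these genes have pseudogenes, with the same limit on shared reads as for Npm1.

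Of 18 Myc target genes outside ribosome biogenesis, 17 rose in EY, 14 in Y and 3 in E, with medians of 1.39, 0.86 and 0.11, beside the same shares of all genes (30.6%, 13.0% and 3.32%). After scaling 16 rose in EY and 10 in Y, while in E 2 rose and 1 fell with a median of -0.01. Odc1, the first enzyme of polyamine synthesis, changed most, from a mean of 43.1 ± 13.5 TPM (SD, n = 5) in N to 231 ± 82.5 TPM (SD, n = 6) in EY (log2 fold change 2.41, adjusted p = 1.28e-06). Nme2 rose by 2.26 (adjusted p = 0.00136) at low levels, with means of 0.21 TPM in N and 1.49 in EY. Shmt2, of mitochondrial folate metabolism, rose by 2.04 (adjusted p = 5.25e-09).

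The 11 partners and relatives of Myc did not move in a single direction. In EY 3 of 11 rose, beside 30.6% of all genes, and 4 fell, beside 11.3%, with a median of -0.04. The Max-binding repressor genes Mxd4 and Mxi1 fell by 1.08 (adjusted p = 2.13e-05) and 0.88 (adjusted p = 2.1e-05) on the log2 scale, and Mycl fell by 0.61 (adjusted p = 0.029). Mga rose by 1.25 (adjusted p = 6.15e-06) and Mxd3, of the same family as Mxd4, by 0.73 (adjusted p = 4.79e-05). Mycn was called higher as well, but it was listed at 0 in the N mice and had a mean of 0.589 TPM in EY. After scaling 3 rose (18.9% of all genes) and 5 fell (19.3%). In Y 2 rose (13.0%), and after scaling 1 rose (7.36%) and 2 fell (6.08%). In E 1 rose (3.32% of all genes), which was Mxd3 (0.45, adjusted p = 0.0427), and 0 were called after scaling.

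**Figure D4:**
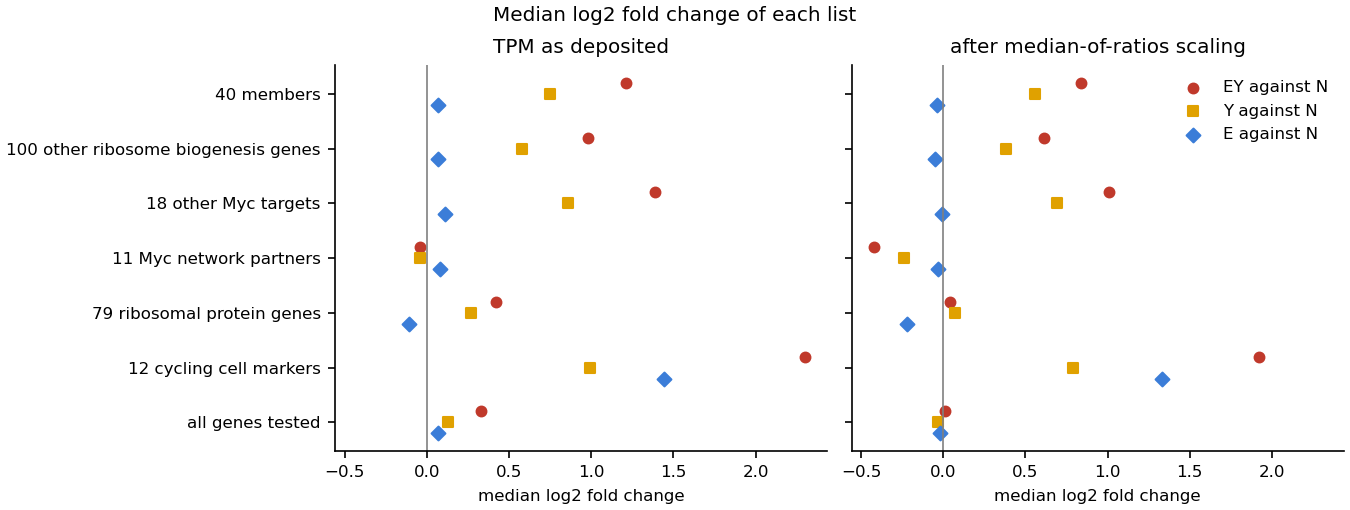
Median log2 fold change (x axis) of each gene list in EY, Y and E against N, on TPM as deposited and after median-of-ratios scaling. In EY the 40 members have a median of 1.21 and 0.84 on the 2 scales, the 79 ribosomal protein genes 0.42 and 0.04, and all genes tested 0.33 and 0.01.

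Because the members moved together and Myc binds the E-box CACGTG, promoters were searched for these letters, which read the same on both strands. RefSeq windows (GRCm38.p6) from 250 bases before to 50 after the gene start were at hand for 33 of 40 members. CACGTG was in the first window of 6 of 33 members (18.2%), beside 1957 of 27025 genes (7.24%) and 1234 of 13139 genes tested here (9.39%). The 6 had a median log2 fold change of 1.10 in EY and the 27 without it 1.23. The 3 of the 6 with the largest change in EY are shown, 5′ to 3′ on the gene's strand with CACGTG in capitals: Nop2 (chr6:125131633-125131932, plus strand), with the motif starting at -60 from the gene start, Wdr43 (chr17:71615965-71616264, plus strand), at 18, and Utp18 (chr11:93885717-93886016, minus strand), at -20.
Nop2: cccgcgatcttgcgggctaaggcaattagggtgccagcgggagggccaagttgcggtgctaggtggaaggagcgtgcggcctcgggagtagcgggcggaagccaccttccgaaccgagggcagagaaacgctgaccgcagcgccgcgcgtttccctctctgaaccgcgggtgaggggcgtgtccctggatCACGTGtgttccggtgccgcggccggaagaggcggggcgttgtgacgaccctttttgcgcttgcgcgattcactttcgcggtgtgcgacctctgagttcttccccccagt
Wdr43: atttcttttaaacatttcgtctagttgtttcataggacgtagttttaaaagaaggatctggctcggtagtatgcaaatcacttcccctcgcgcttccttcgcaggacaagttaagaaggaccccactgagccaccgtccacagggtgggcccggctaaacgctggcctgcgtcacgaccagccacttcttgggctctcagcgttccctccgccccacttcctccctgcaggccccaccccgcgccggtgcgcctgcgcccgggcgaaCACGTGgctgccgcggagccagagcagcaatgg
Utp18: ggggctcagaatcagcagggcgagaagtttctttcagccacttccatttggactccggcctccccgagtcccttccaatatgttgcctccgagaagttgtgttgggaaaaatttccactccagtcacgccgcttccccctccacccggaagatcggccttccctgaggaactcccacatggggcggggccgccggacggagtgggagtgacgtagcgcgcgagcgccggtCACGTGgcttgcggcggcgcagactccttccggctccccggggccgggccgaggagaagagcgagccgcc
A match describes these letters and not binding by Myc, which was not measured in these samples. Nop2, an RNA methyltransferase of the large subunit, rose by 1.36 in EY (adjusted p = 1.49e-05), Wdr43, of the early small subunit, by 1.3 (adjusted p = 2.94e-07) and Utp18, of the same particle, by 1.14 (adjusted p = 5.63e-07).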

How the data were processed

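RNA of whole tongue epithelia was selected by oligo-dT and sequenced. Per the submitters' processing notes, the authors used STAR 2.7.9, SAMtools 1.7, HTSeq 0.13.5 and DESeq2 1.34.0 with GRCm39, and they deposited TPM; how counts became TPM is not given in the sources used here. Whole reads were recovered from the steps of the TPM values for 24680 of 24680 genes above 0, for depth and for 1 alternative.

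Genes that reached 0.1 TPM in 3 or more mice were tested with limma 3.58.1 (trend) in R 4.3.3 on log2(TPM + 0.1), a scale that understates changes of low genes. A single model held all 4 groups, p-values were Benjamini-Hochberg adjusted over 22745 genes, and the method was tested on simulated data. Tables and figures used Python 3.11.15, pandas 2.3.3 and matplotlib 3.10.9. The members and lists were chosen with earlier results of these data known. Named with values were Myc, the most abundant (mean over all mice) and the most changed member (EY against N) of each role list, members called in E, in the interaction or in EY against Y (at most 5 each), and of other lists at most the 3 largest increases and decreases in EY. Bop1, Pes1, Nob1 and members shown for their promoters or as lacking a call were named after their values were seen. Alternatives were other pseudocounts, filters, scalings, call thresholds, N mice and groups in the model, the mouse number as a block, voom, and leaving out each mouse.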

Additional observations from a re-analysis of the deposited data

Results flagged for a closer look

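Among 123 groups of 5 or 6 mice (40 members and their sum in N, E and EY), 3 had a mouse far from the others by Dixon's test at the 95% level, which by chance marks about 1 in 20 groups. Tcof1 was at 2.09 TPM in N mouse 5, where the other N mice had 2.71 to 2.96. Utp15 was at 9.81 TPM in E mouse 1, with 12.6 to 13.3 in the other E mice, and Wdr12 was at 16.7 TPM in EY mouse 3, with 18.2 to 19.1 in the other EY mice. N mouse 5 has both effectors but lacks rtTA, and EY mouse 3 had the highest summed TPM of muscle markers (1360); the part of either in these values was not tested.

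The change of Wdr12 in EY departed from the sum of its changes in E and Y, by an interaction of 0.95 ± 0.15 SE on the log2 scale (limma, adjusted p = 0.00598).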

How the results depend on the processing

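Calls of members kept their direction, higher than the group compared, in every alternative run except in E against N after median-of-ratios scaling and after quantile normalization, where 2 were called, 1 of them lower (0.665% and 0.690% of all genes lower). Percentages in brackets are the share of all genes called higher in the same fit. On TPM as deposited 40 members were called in EY against N (30.6%), 31 in Y (13.0%), 1 in E (3.32%), 10 in EY against Y (6.18%), 40 in EY against E (24.7%) and 1 in the interaction (0.242%). Median-of-ratios scaling gave 4 in EY against Y (3.01%), and quantile normalization gave 18 in Y (6.91%) and 5 in the interaction (0.453%). With scaling the median log2 fold change of the members went to 0.84 (EY), 0.56 (Y) and -0.04 (E), and with quantile normalization to 0.86, 0.50 and -0.06. These shifts follow the median of all genes, which went from 0.33 to 0.01 in EY with scaling.

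Only the 3 N mice with both drivers gave 0 calls in E (1.65%) with a median of -0.03, and 21 calls in Y (8.01%) with a median of 0.64 in place of 0.75. Only the groups compared gave 6 calls in EY against Y (5.55%). A filter at 1 TPM gave 2 calls in the interaction (0.325%) and voom gave 3 (0.273%). An adjusted p below 0.01 gave 0 calls in E (1.71%) and 4 in EY against Y (2.34%). With an absolute log2 fold change above 1 as well, 3 were called in Y (3.47%), 0 in E (1.16%), 0 in EY against Y (1.07%), 26 in EY against E (7.82%) and 0 in the interaction (0.00879%). The same rule after scaling, chosen after seeing the data, gave 7 in EY (6.78%), 0 in Y (2.31%), 0 in E (0.986%), 0 in EY against Y (0.541%), 8 in EY against E (4.41%) and 0 in the interaction (0.00880%).

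Myc in EY (0.80) was not past the rule with the fold limit. Myc in Y (0.55) lost its call with scaling (0.35), quantile normalization (0.24), only the groups compared (0.55), voom (0.44) and both stricter rules (0.55), with adjusted p from 0.0154 to 0.369; the cause was not tested.

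Leaving out 1 mouse at a time, members called ranged from 39 to 40 in EY (27.6% to 30.8%), 20 to 33 in Y (7.38% to 13.5%), 1 to 1 in E (2.28% to 4.01%), 4 to 17 in EY against Y (2.47% to 6.55%), 39 to 40 in EY against E (22% to 25.0%) and 1 to 3 in the interaction (0.0440% to 0.367%). Over these fits the Myc log2 fold change was 0.73 to 0.88 (EY), 0.47 to 0.64 (Y) and -0.10 to 0.05 (E), and the median of the members was 1.16 to 1.28, 0.68 to 0.80 and 0.02 to 0.09.

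With the mouse number as a replicate block 40, 28, 1, 11, 40 and 1 members were called in the same order (29.8%, 11.2%, 2.90%, 5.81%, 23.7% and 0.215%). Deviations of same-numbered mice of different groups had a median r of 0.012 over 24 pairs, with 0 above 0.1, beside -0.008 over 109 other pairs. The check cannot tell whether such mice share anything beyond the number.

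A log2 fold change is a difference of TPM shares, and total RNA per cell was not measured. The Y group has 3 mice, which limits comparisons with it.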
